A study of Homo sapiens with 6 samples.

Results

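The MYC and MAX network was followed as 10 genes, MYC, MYCL, MAX, MXD1, MXD3, MXD4, MXI1, MNT, MGA and MLXIP, which were found by symbol among the 63241 Ensembl genes of each library. All 10 were matched to a single identifier. The breast cancer line MDA-MB-231, human, triple-negative and of a genotype given as WT, was exposed for 24 h to 5 μM NCD (nitidine chloride, a plant alkaloid) or to 0.1% DMSO as vehicle, with 3 libraries per group, 6 in all. For NCD replicates 2 and 3 the description ends the line's name in other numbers, and the cell line field, which gives MDA-MB-231 for all 6, was followed. Whether the replicates were separate cultures is not stated in the labels, so p-values measure the spread between these libraries only. The libraries held 18223594 to 21629653 counts. All 5 markers of this mesenchymal line (VIM, CD44, AXL, CAV1 and MSN) lay at or above 208.6 CPM (the count relative to library size, scaled with TMM factors) in every library, and all 5 were lower with NCD, with log2 fold changes from -1.82 (CD44 and MSN) to -0.21 (VIM). Of 5 genes that mark other breast cells, ESR1, PGR and CDH1 had at most 7 counts, while ERBB2 (35.2 to 62.6 CPM) and EPCAM (45 to 93 counts) were present and higher with NCD, by 0.71 and 0.57 on the log2 scale. The leukocyte markers PTPRC and CD3E had at most 1 count. Among markers of other cells, PECAM1 (endothelial) had 8 to 21 counts, and COL1A1 (fibroblasts) rose from between 2.32 and 3.56 CPM to between 12.7 and 14.8 CPM. The part of these marker changes in the results was not tested.

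MYC is a basic helix-loop-helix leucine zipper transcription factor that binds DNA only as a dimer with MAX, at E-box sites, and drives genes of growth, ribosome production and metabolism. The MXD proteins, MXI1 and MNT compete with MYC for MAX at the same sites and recruit the SIN3 corepressors, and MGA joins MAX in a Polycomb repressor complex. MLXIP, also called MondoA, stands beside this system: it pairs with MLX, a relative of MAX, and responds to glucose metabolites. Amplified or overexpressed MYC is common in triple-negative breast cancer.

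After NCD treatment MYC fell to 0.539 of its DMSO level, 3 antagonists of MYC rose clearly (MXD1 2.74-fold, MXD4 2.18-fold and MNT 1.59-fold), and the shared partner MAX did not pass the test. MXI1, MGA and MLXIP fell, and MYCL rose from a few counts per library. A gene is said to have risen or fallen where the adjusted p was below 0.05 at any fold, and is called where the absolute log2 fold change was also above 1. By the first rule 9 of the 10 members passed (5 higher, 4 lower), against 69.3% of all 15295 tested genes (35.3% higher and 34.1% lower). Called were 3 members, MYCL, MXD1 and MXD4, all of them higher, against 31.0% of all tested genes (13.5% higher and 17.5% lower). The members' share of calls is thus near that of all genes. Their median log2 fold change was 0.23, beside 0.04 over all tested genes. All 10 passed the filter on low counts, MYCL only through its NCD libraries. MYCL is among the 5 higher and the 3 called and is included in the median of 0.23. These values thus lean on a gene tested because it was high with NCD. With at least 10 counts required in every library, which removes MYCL, 2 of 9 members were called, against 3683 of 13498 tested genes. Less RNA per cell and fewer cells cannot be told apart in such bulk libraries, since each value is relative to the library's total.

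**Figure D1:**
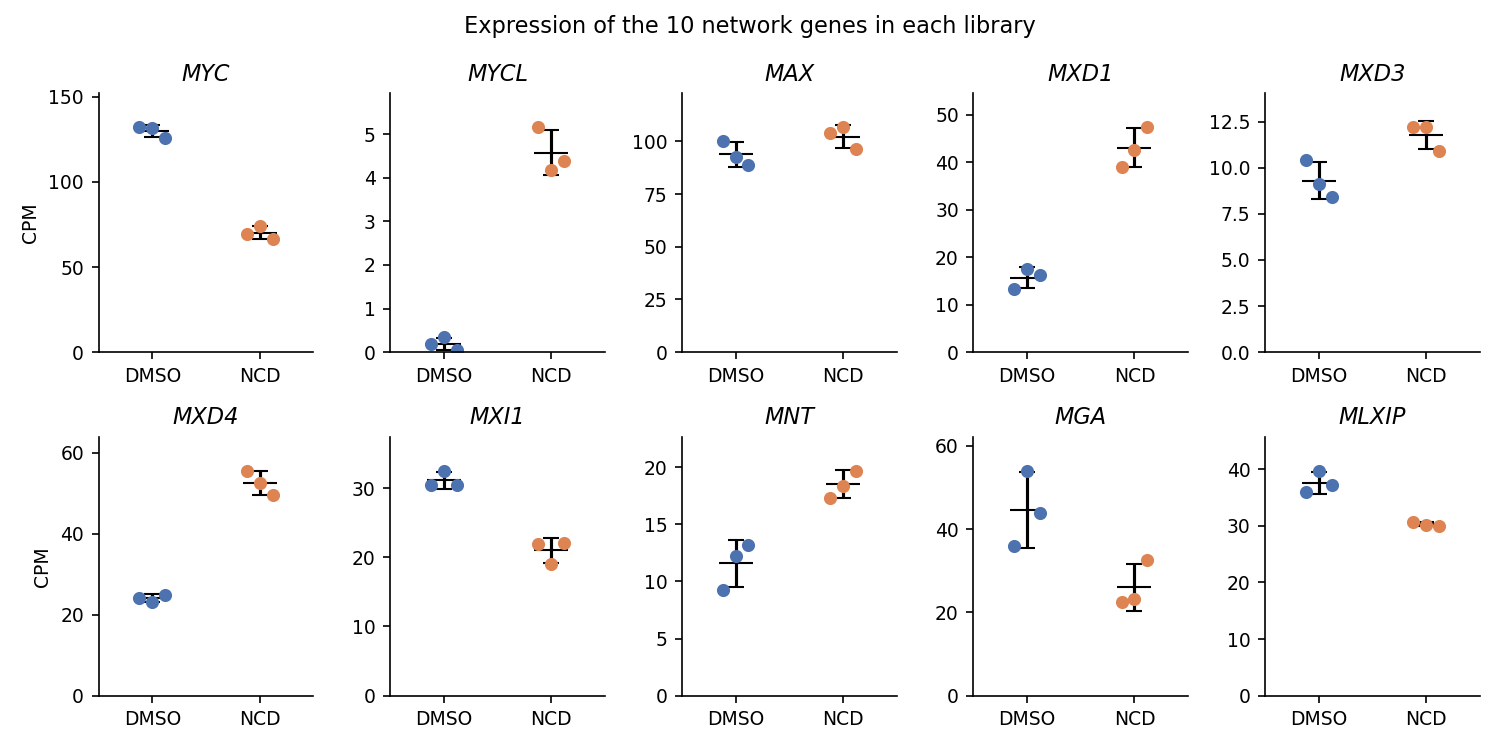
Expression of the 10 members in CPM (vertical axis, from 0, a separate scale for each gene) in the 3 DMSO and 3 NCD libraries, with points for libraries and bars for the mean and SD. The groups overlap for MAX. How many of all tested genes show no overlap was not counted, so a lack of overlap cannot be read as particular to the members. By another measure, adjusted p below 0.05, 69.3% of all tested genes passed.

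MYC (ENSG00000136997; chromosome 8, 127735434 to 127741434 on the plus strand, GRCh38, GENCODE release 29) had 132.1, 131.9 and 126.0 CPM under DMSO and 69.2, 74.3 and 66.6 CPM under NCD. Every NCD library lay well below every DMSO library, and the gap exceeded the spread within either group. The mean went from 130.0 ± 3.45 to 70.1 ± 3.93 CPM (SD, n = 3 each), so that the log2 fold change was -0.89 (SE, its standard error, 0.06; edgeR quasi-likelihood adjusted p = 2.2e-06). It fell just short of the fold threshold of 1, and none of the alternatives tried moved it past that threshold, with values from -0.94 to -0.70.

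MYCL (ENSG00000116990; chromosome 1, 39895426 to 39902256, minus strand), the paralogue first found amplified in small cell lung cancer, was almost silent with DMSO. Its libraries held 3, 6 and 1 counts with DMSO and 118, 80.88 and 94 counts with NCD. The group means were 0.192 ± 0.143 and 4.58 ± 0.511 CPM (SD, n = 3 each), with no overlap between the groups. The summed rounded counts rose from 10 to 293, a ratio of 24.2 with an exact 95% interval of 13.0 to 50.9 for counting error only. The fitted log2 fold change was 4.54 (SE 0.36, edgeR adjusted p = 4.7e-06) and ranged from 4.06 to 5.23 with each library left out. MYCL entered this test only through its NCD libraries. Its antisense neighbour MYCL-AS1 had at most 1.12 counts. Per kilobase of exon, MYCL with NCD still stood at 0.904 CPM per kb, beside 23.3 CPM per kb for MYC. Its rise thus left the sum of both genes lower, at 24.3 ± 1.26 CPM per kb after NCD against 43.4 ± 1.18 CPM per kb after DMSO (SD, n = 3 each). MYCN, the third paralogue, had 0 counts in all 6 libraries, which allows up to 0.139 to 0.165 CPM of the unscaled library total, for counting error only.

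MAX (ENSG00000125952; chromosome 14, 65006174 to 65102695, minus strand), the obligate partner of MYC and a partner of its antagonists, had 100.3, 92.6 and 88.8 CPM with DMSO and 104.0, 106.7 and 96.3 CPM with NCD. The NCD library with the least MAX lay below the DMSO library with the most. Its log2 fold change was 0.12 (SE 0.07, edgeR adjusted p = 0.14), and limma-voom's 95% interval of the log2 fold change ran from -0.03 to 0.28. With libraries scaled by their totals it was 0.32 (edgeR adjusted p = 0.00124), a scaling that shifts the median of all genes by 0.20. FNTB, which lies on the opposite strand within the span of MAX, shares no exonic base with it.

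Of the antagonists, MXD1, MXD3, MXD4 and MNT rose, while MXI1 fell. MXD1 (ENSG00000059728; chromosome 2, 69897688 to 69942945, plus strand), which is induced as many cell types stop dividing and differentiate, had 13.3, 17.6 and 16.2 CPM with DMSO and 39.1, 42.6 and 47.4 CPM with NCD. The lowest NCD value was more than double the highest DMSO value. Its log2 fold change was 1.46 (SE 0.12, edgeR adjusted p = 5.64e-06). SNRNP27 on the same strand shares 237 exonic bases with MXD1, and it rose too, by a log2 fold change of 0.60 (SE 0.08), so the counts of MXD1 are uncertain to that extent. MXD4 (ENSG00000123933; chromosome 4, 2247432 to 2262294, minus strand) had 24.2, 23.1 and 24.9 CPM with DMSO and 55.5, 52.4 and 49.6 CPM with NCD. Its log2 fold change was 1.12 (SE 0.08, edgeR adjusted p = 1.7e-06), with the groups far apart. MNT (ENSG00000070444; chromosome 17, 2384060 to 2401118, minus strand), the most widely expressed antagonist of MYC, had 9.28, 12.2 and 13.2 CPM with DMSO and 17.3, 18.4 and 19.7 CPM with NCD. Its log2 fold change was 0.67 (SE 0.13, edgeR adjusted p = 0.00176). It rose without overlap, below the fold threshold.

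MXD4 and MNT shared a feature that the choice of genes had not used, a canonical E-box, CACGTG, in the 250 bases before the start of the RefSeq transcript. The motif reads alike on both strands and lay 238 bases (MXD4) and 193 bases (MNT) before the start, counted from its first base. Promoters were held for 9 of the 10 members, all but MYC. The motif was in 2 of their 14 promoters (14.3%), and in 6.34% of all 35116 promoters over the same 250 bases. MXD1 rose more than either and had no match, and MYCL and MXD3, which also rose, had none. This says only that these letters are not in these windows. The MXD1 window lies inside the annotated span of MXD1, downstream of its first base, 69897688. The bases before that first base were not searched. The parts of these promoters outside annotated exons are shown 5′ to 3′ for the strand of the gene, with the E-box in capitals (RefSeq, GRCh38.p14). They are chr4:2262295-2262359, minus strand, for MXD4, chr17:2401119-2401310, minus strand, for MNT and, for comparison, chr2:69914859-69915040, plus strand, for MXD1.
MXD4: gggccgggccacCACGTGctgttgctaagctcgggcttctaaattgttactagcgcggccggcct
MNT: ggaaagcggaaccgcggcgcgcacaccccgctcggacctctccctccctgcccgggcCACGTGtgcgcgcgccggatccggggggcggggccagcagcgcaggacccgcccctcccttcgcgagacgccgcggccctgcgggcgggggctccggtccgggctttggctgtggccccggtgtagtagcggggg
MXD1: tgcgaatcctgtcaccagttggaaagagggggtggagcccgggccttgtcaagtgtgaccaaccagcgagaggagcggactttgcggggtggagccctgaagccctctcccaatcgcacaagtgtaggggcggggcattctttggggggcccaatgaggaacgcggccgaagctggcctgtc
CACGCG, a variant E-box read on either strand, was in 9.72% of all promoters and in 1 of the 14, an MGA promoter.

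MXD3 (ENSG00000213347; chromosome 5, 177301461 to 177312757, minus strand), which is linked to the S phase of proliferating cells, had 10.4, 9.11 and 8.39 CPM with DMSO and 12.2, 12.2 and 10.9 CPM with NCD. The groups lay side by side without overlap. Its log2 fold change of 0.34 (SE 0.12, edgeR adjusted p = 0.025) was the least secure of the risers: the adjusted p was 0.0706 with DESeq2 and 0.113 with ribosomal protein genes as reference, and it rose above 0.05 without DMSO replicate 2, DMSO replicate 3, NCD replicate 1 or NCD replicate 2, to at most 0.137. The log2 fold change was 0.32 with DESeq2, 0.33 with the ribosomal protein genes, and 0.25 to 0.32 in those fits without a library. MXD3 also shares 926 exonic bases with RAB24 on its own strand, which rose by a log2 fold change of 1.03 (SE 0.08), and 1158 with PRELID1 on the other strand. Whether the counting used strand is not stated, so the counts of MXD3 are uncertain. MXI1 (ENSG00000119950; chromosome 10, 110207605 to 110287365, plus strand), a close relative of MXD1, had 30.4, 32.5 and 30.5 CPM with DMSO and 21.9, 19.0 and 22.1 CPM with NCD. It fell by 0.57 on the log2 scale (SE 0.09, edgeR adjusted p = 0.000349), opposite in direction to the other 4 antagonists.

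MGA (ENSG00000174197; chromosome 15, 41621224 to 41773081, plus strand), which holds both a T-box and a MAX-binding domain, had 35.9, 54.0 and 43.8 CPM with DMSO and 22.5, 23.2 and 32.5 CPM with NCD. NCD replicate 3 came close to DMSO replicate 1 without reaching it. It fell by 0.78 on the log2 scale (SE 0.18, edgeR adjusted p = 0.00366), and between 0.62 (without DMSO replicate 2) and 0.98 (without NCD replicate 3) when a library was left out. MLXIP (ENSG00000175727; chromosome 12, 122078722 to 122147347, plus strand) had 35.9, 39.7 and 37.2 CPM with DMSO and 30.7, 30.2 and 29.9 CPM with NCD. It fell by 0.31 (SE 0.07, edgeR adjusted p = 0.00378). With library totals the log2 fold change was -0.12 (edgeR adjusted p = 0.199), and with ribosomal protein genes as reference it was -0.34, again short of the threshold. MLX, the partner of MLXIP, was at 115.8 ± 4.61 CPM under DMSO and 108.8 ± 3.07 CPM under NCD (SD, n = 3 each). Its log2 fold change was -0.09 (edgeR adjusted p = 0.195), and limma-voom's 95% interval ran from -0.22 to 0.04. With library totals the direction of MLX turned, to 0.11. MLXIPL, the liver and fat paralogue of MLXIP, had 3 to 6 counts with DMSO and 17 to 21 with NCD, and rose by a log2 fold change of 1.78 (edgeR adjusted p = 0.00219). Like MYCL, it passed the filter only through the NCD libraries.

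**Figure D2:**
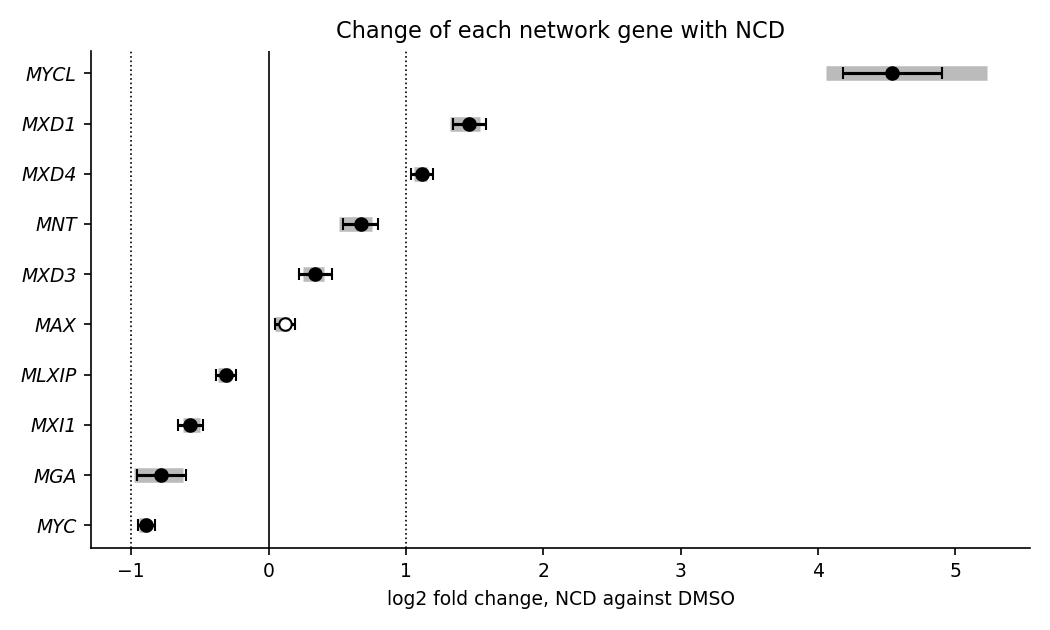
Log2 fold change of each member, NCD against DMSO (horizontal axis), where points and bars give the edgeR estimate and its standard error, filled where the adjusted p was below 0.05, grey bands the range when each library was left out, and dotted lines the fold threshold of 1. MAX is the only open point, and MYCL (4.54), MXD1 (1.46) and MXD4 (1.12) lie above the threshold.

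Levels of different genes were set side by side per kilobase of their joined exons, since a longer transcript gives more counts. Places in the orders below can depend on the length used. The joined exons of MXD3 held 5154 bases and its longest transcript 2279, while those of MGA held 17651 and 14439. With DMSO the order by CPM per kb was MYC (43.3), MAX (21.2), MXI1 (6.76), MXD4 (3.41), MLXIP (2.71), MGA (2.52), MXD1 (2.47), MXD3 (1.80), MNT (1.33) and MYCL (0.0379). MLXIP, MGA and MXD1 differed by less than the SD of MGA, 0.513. With NCD the order was MYC (23.3), MAX (23.1), MXD4 (7.44), MXD1 (6.78), MXI1 (4.56), MXD3 (2.29), MLXIP (2.18), MNT (2.12), MGA (1.48) and MYCL (0.904). MYC and MAX were then closer than the SD of either (1.31 and 1.22), and MXD3 and MLXIP were closer than the SD of MXD3 (0.147), as were MLXIP and MNT. MXI1 was the most abundant antagonist mRNA with DMSO, and MXD4 and MXD1 both lay above it with NCD.

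The balance of MYC to its antagonists shifted further than MYC itself. The ratio of MYC to summed MXD1, MXD3, MXD4, MXI1 and MNT, per kb, was 2.90, 2.70 and 2.65 under DMSO and 0.997, 1.09 and 0.938 under NCD. Whether MYC stood level with the summed antagonists or below them with NCD depends on the length used, with mean ratios of 1.01 per kb of joined exons, 0.845 per kb of the longest transcript and 0.478 without division by length. The same means with DMSO were 2.75, 2.30 and 1.42, all above those with NCD. The log2 ratio was lower by 1.45 with NCD, to 0.366 of its DMSO value. An exact two-sided permutation test of 3 against 3 libraries gave p = 0.1, the smallest p this design allows. The summed antagonists went from 15.8 ± 0.551 to 23.2 ± 0.503 CPM per kb (SD, n = 3 each). The ratio of MAX to its summed partners (MYC, MYCL, the antagonists and MGA) was 0.369, 0.330 and 0.332 with DMSO and 0.484, 0.485 and 0.447 with NCD. This was 1.37-fold higher with NCD, without overlap (exact two-sided permutation p = 0.1). Without division by length it was 1.17-fold higher, and p was 0.2 in the same exact test.

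**Figure D3:**
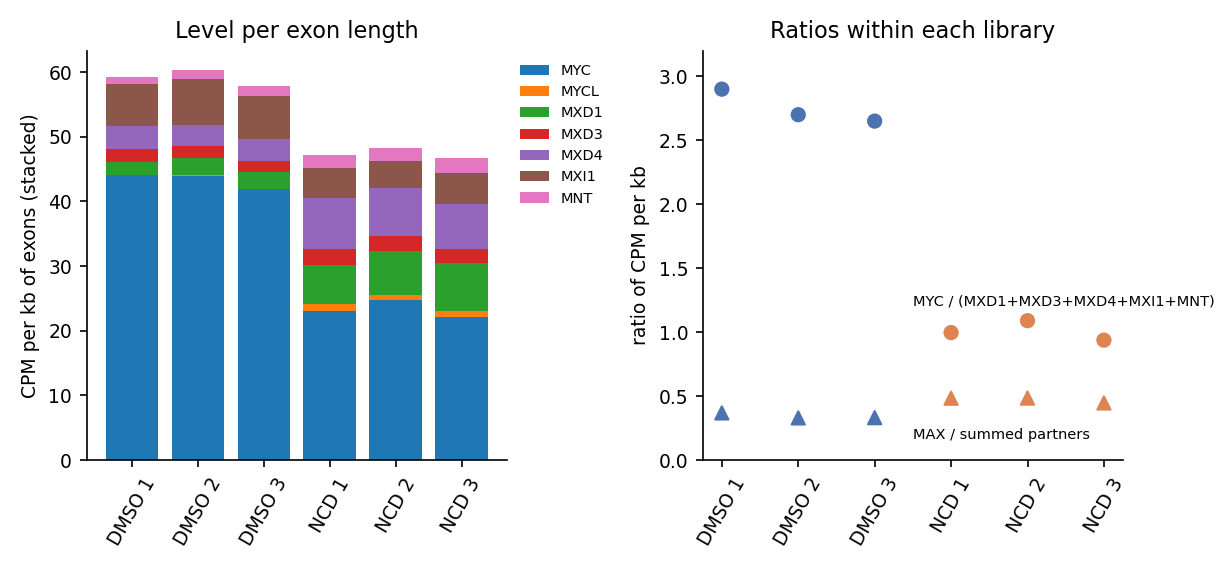
Left, stacked CPM per kb of exons of MYC, MYCL and the 5 antagonists in each library. Right, the ratio of MYC to the summed antagonists (circles) and of MAX to its summed partners (triangles) in each library, blue for DMSO and orange for NCD; the first spans 2.65 to 2.90 for DMSO libraries, 0.938 to 1.09 for NCD libraries.

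The span of a gene, from first to last annotated base, went along with its change over all tested genes, and the members are given beside this. From shortest to longest, MYC spans 6.0 kb, MYCL 6.8 kb, MXD3 11.3 kb, MXD4 14.9 kb, MNT 17.1 kb, MXD1 45.3 kb, MLXIP 68.6 kb, MXI1 79.8 kb, MAX 96.5 kb and MGA 151.9 kb. Tested genes in the span decile of MYC and MYCL (3.7 to 8.0 kb) had a median log2 fold change of 0.39 and quartiles of -0.05 and 0.90, and MYC lay below these and MYCL above. MXD3 and MNT lay between the quartiles of their deciles. MXD4 lay above an upper quartile of 0.89 and MXD1 above one of 0.43. MLXIP and MXI1 lay within the quartiles of the decile from 58.9 to 89.7 kb (-0.78 and 0.15), and MGA within those of the decile from 89.7 to 153.1 kb (-1.40 and -0.33). MAX, in that last decile with a median of -0.93, lay above its upper quartile. The part of span in these changes was not tested.

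**Figure D4:**
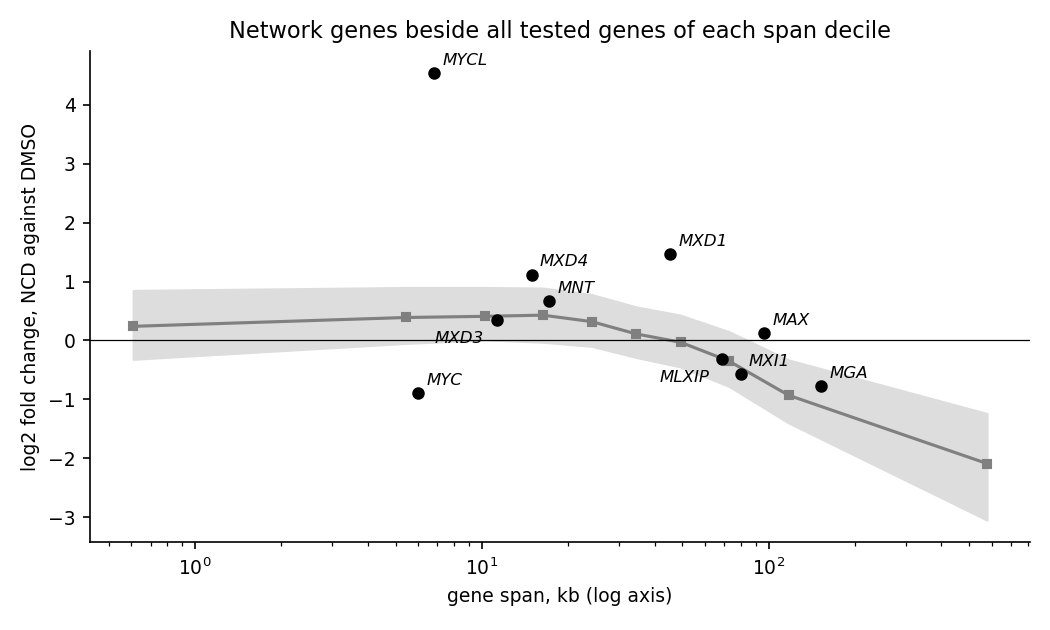
Log2 fold change of the members (black points, vertical axis) by gene span in kb (horizontal axis, log scale), where the grey line and band give the median and quartiles of all tested genes in each span decile, which fall from 0.43 for 13.2 to 20.1 kb to -2.09 for the longest decile. MYC lies below the band, and MYCL, MXD1, MXD4 and MAX lie above it.

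Of 5 listed RNAs from the neighbourhood of MYC, 2 were tested and both were lower. PVT1, a long noncoding RNA gene downstream of MYC with a span of 306.7 kb, went from 26.6 ± 1.49 to 8.63 ± 0.595 CPM (SD, n = 3 each), which is -1.62 on the log2 scale (SE 0.10, edgeR adjusted p = 7.52e-07). CASC8, with a span of 192.3 kb, fell by 1.25 on the log2 scale. Both belong to the longest span decile, and both fell less than its median of -2.09 and lay within its quartiles (-3.05 and -1.24). CASC11 and PCAT1 had at most 3 counts in any library. Across the 6 libraries the tested genes most like MYC in log2 CPM were INVS, BBS9 and GABPB1 (Pearson's r of 0.9996, 0.9995 and 0.9995). These r values rest on the difference between 2 groups, and 3134 tested genes had r of at least 0.95.

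Genes that MYC is known to raise were followed as a list of 50, mainly of nucleolar and ribosome assembly factors, nucleotide and polyamine synthesis and glycolysis. Of the 49 tested, 14 rose (28.6%), 16 fell (32.7%) and 19 did not pass, shares near or below those of all genes, with a median log2 fold change of -0.10. The median span of these 49 genes was 11.9 kb. All tested genes in the span decile from 8.0 to 13.2 kb had a median log2 fold change of 0.41, with quartiles of 0.01 and 0.9. The list's median lay below that lower quartile. The quartiles are those of single genes in a single decile, and the list's genes were not each matched to their own decile. Whether the list is low for its span was thus not tested. Called were 2 higher and 7 lower, together 18.4% of the list against 31.0% of all tested genes. Among the called, WDR43, a small-subunit processome factor, went from 155.9 ± 5.23 to 38.1 ± 0.603 CPM (SD, n = 3 each; log2 fold change -2.03). HK2 and LDHA, glycolytic enzymes, fell by 1.86 and 1.39 on the log2 scale, and PRMT3, which methylates a ribosomal protein, by 1.59. SHMT2, the mitochondrial serine hydroxymethyltransferase, rose from 300.4 ± 12.3 to 766.8 ± 58.6 CPM (SD, n = 3 each; log2 fold change 1.35), and CCND2, a cyclin of G1, rose by 2.09. The ribosome assembly genes went both ways. NPM1 fell by 0.81, NOP2 rose by 0.66, and NCL, the nucleolar protein nucleolin, had a log2 fold change of -0.04 (edgeR adjusted p = 0.596). SLC19A1, the folate carrier, was below the filter, with at most 18.87 counts.

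Genes that MYC is known to repress, a list of 8, had 6 tested members, of which 5 rose (83.3%, against 35.3% of all tested genes) and 1 fell (16.7%, against 34.1%), with a median log2 fold change of 0.91. The median span of these 6 genes was 9.1 kb. All tested genes in the span decile from 8.0 to 13.2 kb had a median log2 fold change of 0.41, with quartiles of 0.01 and 0.9. The part of span in these rises was not tested. CDKN1A, the cell cycle inhibitor p21, rose from 61.2 ± 2.72 to 126.7 ± 10.4 CPM (SD, n = 3 each; log2 fold change 1.05), and the growth arrest gene GADD45A by 1.08. Both are also known p53 targets. CDKN1B and NDRG2 rose by 0.52 and 0.77. CEBPA, a differentiation factor, had 1 to 3.26 counts with DMSO and 30.6 to 35.7 with NCD, and passed the filter only through the latter. CEBPA is among the 5 that rose and is included in the median of 0.91, so both lean on a gene tested because it was high with NCD. NDRG1, a stress gene that hypoxia raises, moved the other way, from 198.2 ± 12.6 to 48.3 ± 2.47 CPM (SD, n = 3 each; log2 fold change -2.04). CDKN2B and GAS1 had 0 counts in every library.

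Of 6 genes known to respond to MLXIP, TXNIP, ARRDC4 and ARRDC3, arrestin family genes, rose by 0.48, 0.92 and 0.65 on the log2 scale. HK2 and PFKFB3, glycolytic genes, fell by 1.86 and 1.08, and KLF10 was at -0.11 (edgeR adjusted p = 0.182). These are 3 that rose (50%, against 35.3% of all tested genes) and 2 that fell (33.3%, against 34.1%). HK2 stands in this list and in that of MYC.

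Genes that control the stability of the MYC protein were mostly lower. Of 21, 15 fell (71.4%, against 34.1% of all tested genes), 3 rose and 3 did not pass, with a median log2 fold change of -0.41. The 7 called were all lower, and their share of 33.3% is near the 31.0% of all tested genes. They include the kinase GSK3B, which marks MYC for degradation (76.5 ± 7.02 to 8.92 ± 1.19 CPM, SD, n = 3 each, log2 fold change -3.10), the ubiquitin ligase genes MYCBP2 (-3.47), BTRC (-2.45), HUWE1 (-1.68) and FBXW7 (-1.92), whose product reads the GSK3 mark, and CIP2A (-1.50), which protects MYC from degradation. The list thus holds genes that act both ways on MYC: USP7 and AURKA, which stabilise MYC proteins, fell by 0.78 and 0.28, while GSK3A rose by 0.84. The median span of these 21 genes was 65.2 kb, beside 29 kb over all tested genes. All tested genes in the span decile from 58.9 to 89.7 kb had a median log2 fold change of -0.35, with quartiles of -0.78 and 0.15. The list's median of -0.41 lay between these quartiles and near that median. Its genes were not each matched to their own decile, and the part of span in the count was not tested. mRNA levels say nothing of MYC protein, which was not measured here.

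Of 19 cofactor genes of MYC and its antagonists, 5 rose (26.3%, against 35.3% of all tested genes), 8 fell (42.1%, against 34.1%) and 6 did not pass, with a median log2 fold change of 0.05. The corepressor NCOR1 fell by 2.17 on the log2 scale, and TRRAP, the scaffold of the MYC acetyltransferase complexes, by 1.56. KAT2A, an acetyltransferase that works with TRRAP, rose by 1.08. SIN3A, the corepressor that MXD proteins recruit, fell by 0.54, and SIN3B was at 0.05 (edgeR adjusted p = 0.564). Of 12 genes of the repressor complex that holds MGA, 4 rose (33.3%, against 35.3% of all tested genes), 1 fell (8.33%, against 34.1%) and 7 did not pass, with a median of 0.03. E2F6, a DNA-binding subunit, rose by 0.88, PCGF6 by 0.70, L3MBTL2 by 1.01 and RING1 by 0.57. TFDP1 was the 1 that fell, by 0.52, and MGA itself fell. HDAC1, HDAC2 and WDR5 stand in both lists.

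**Figure D5:**
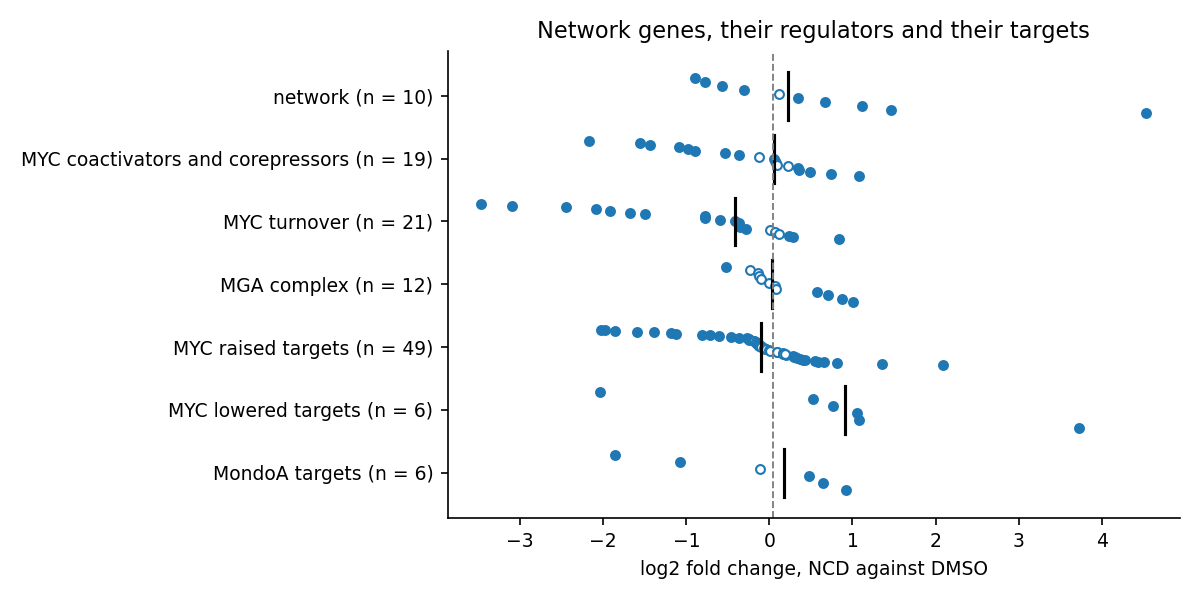
Log2 fold change (horizontal axis) of each tested gene in the network and in 6 lists of cofactors, stability regulators and targets, where filled points passed at adjusted p below 0.05, black bars are list medians and the dashed line is the median of all tested genes, 0.04. The stability regulators have the lowest median (-0.41) and the genes repressed by MYC the highest (0.91). The latter includes CEBPA, which passed the filter only through the NCD libraries, and the network includes MYCL, which did so too. The stability regulators had a median span of 65.2 kb, in a span decile where all tested genes had a median of -0.35.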

How the data were processed

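RNA-seq libraries of MDA-MB-231 cells (3 DMSO, 3 NCD) were used. The authors aligned reads with HISAT2 and estimated counts per gene with RSEM. Per the labels the build was GRCh38; annotation release and strandedness are not given in the sources used here. The deposited values are expected counts, not normalized, 1 library per file, and 25 lines of stray text per file were skipped. They were rounded to integers, and edgeR 4.0.16 (R 4.3.3) was run on them (filterByExpr, TMM factors from 0.9115 to 1.092, glmQLFit, glmQLFTest, Benjamini-Hochberg over 15295 genes). The SE of a log2 fold change is its size over the root of F. Libraries of a group differed beyond sampling noise (chi-square per degree of freedom from 2.04 to 15.5). The exact interval of summed counts and the limit for 0 counts cover counting error only, while limma-voom intervals include the spread between libraries. Alternatives were DESeq2 1.42.0, limma-voom (limma 3.58.1), other scalings and filters, a prior count of 2, no fold threshold, a replicate block and each library left out. scipy 1.17.1 gave permutation tests. Scripts were tested on simulated data.

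The members and gene lists were chosen with earlier results of these data known. Named are all members, the other network genes, up to 4 called genes with the smallest p per list and direction, and the 3 genes most like MYC; further genes were chosen after their values were seen. Coordinates, spans and exon lengths came from GENCODE release 29, and promoters from RefSeq. CCAT1 was not analysed here, and some genes that the naming rule picks are not reported here.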

Additional observations from a re-analysis of the deposited data

How the results depend on the processing

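MYC, MYCL, MXD1, MXD4, MXI1, MNT and MGA kept their direction under all alternatives run, and their side of the adjusted p threshold under all that give a p (a prior count of 2 gives none), which for MYCL did not include the stricter filter (10 or more counts in all 6 libraries), since it removes that gene. MAX, MXD3 and MLXIP kept their direction, and the settings that changed their side of the threshold are given with their values above. MLX reversed to 0.11 with library totals, a scaling that shifts all genes up by 0.20 in the median. Without the fold threshold, by construction, 9 network members, 13 cofactors, 18 stability genes, 5 genes of the MGA complex, 30 raised MYC targets and 5 MLXIP targets counted. The single call in the MGA complex (L3MBTL2, close to the fold threshold) became 0 calls with DESeq2, with its size factors, with the stricter filter and relative to ribosomal protein genes, 2 with library totals, and 0 to 1 without each library (0 without DMSO replicate 1, DMSO replicate 3 or NCD replicate 3). With the stricter filter the other network genes had 0 calls, since MLXIPL was removed. The log2 ratio of MAX to its partners moved from 0.46 to 0.23 without division by length; the cause was not tested. The share of higher calls over all genes was 43.6%, 56.2% with library totals.

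The labels do not say whether libraries pair by their replicate number. The deviations of same-numbered libraries from their group means had correlations of 0.216, -0.185 and 0.023. With 3 libraries per group these cannot exclude a shared culture or batch. With the replicate number as a block, the log2 ratio of MYC to its antagonists differed by -1.45, as without it, and 4723 genes were called instead of 4736. Depth limits MYCL with DMSO, MYCN, MLXIPL, CEBPA and SLC19A1.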
